A study of Mus musculus with 12 samples.

Results

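The oligoadenylate synthetase (OAS) family was followed through 6 mouse genes, Oas1a, Oas1g, Oas2, Oas3, Oasl1 and Oasl2, which were taken by symbol from a count table of 35303 gene symbols. All 6 had enough counts to be tested, as had 17676 symbols in all, and they were chosen by name and by their levels in these libraries, which were known to be high in CITED. OAS enzymes bind double-stranded RNA and then join ATP into short chains of adenosine with an unusual 2′-5′ linkage. These oligoadenylates act as messengers of the antiviral response inside the cell. The genes are best known as interferon-stimulated genes, and myeloid cells are among the cells that express them.

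Bulk RNA-seq covered 12 libraries of myeloid-derived suppressor cells (MDSCs), which are immature myeloid cells that restrain T cells. The cells came from the bone marrow of female wild-type C57BL/6 mice aged 6 to 10 weeks, were grown with IL-6 and GM-CSF (each 40 ng/ml), were harvested on day 3, and were purified as CD11b+Gr1+ cells. The 3 groups, with 4 libraries each, were MDSCs without particles (MDSC), MDSCs carrying blank poly(lactic-co-glycolic acid) nanoparticles (MDSC-NP-Blk), and MDSCs carrying nanoparticles loaded with rapamycin, an inhibitor of mTOR (CITED). Every group was kept for 24 hours with IL-6 before RNA extraction. The particles were attached through an azido sugar (50 µM) that the cells had taken up, and whether the MDSC libraries also came from sugar-fed cells is not given in the sources used here. The population is a mixture of granulocytic and monocytic MDSCs, and the study describes the replicates as biologically independent. A tissue field in the labels names the central nervous system, whereas the methods describe cultured marrow cells.

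The libraries held 20604809 to 37855478 counts, so a floor of 3 counts stood at 7.92e-06% to 1.46e-05% of a library, a limit that covers counting error only. All 9 MDSC markers examined were detected, with sums of 604800 to 690900 normalized counts (counts scaled to a library of the mean size, 24589832) in MDSC, 823300 to 871500 in the MDSC-NP-Blk group and 636500 to 729500 in CITED. Within that list, Csf3r, the G-CSF receptor of granulocytic cells, was higher in CITED than in MDSC by 1.54 on the log2 scale (edgeR's quasi-likelihood test, adjusted p = 6.4e-22), and Ccr2, a monocyte chemokine receptor, fell by 1.18 (adjusted p = 7.7e-18). In MDSC-NP-Blk against MDSC these genes stood at 1.34 (adjusted p = 9.4e-20) and −0.67 (adjusted p = 1.9e-11). Ly6c1, with at most 66 reads in a library, was also called lower in CITED than in MDSC (−1.04, adjusted p = 0.029). Ly6g, a granulocytic marker, rose against MDSC by 0.22 in CITED and 0.23 with blank particles (adjusted p = 0.0014 and 0.00092). Ly6c2, a gene of the monocytic marker Ly6C, did not follow Ccr2. Against MDSC it fell by 0.35 in CITED (adjusted p = 3.9e-08) but rose by 0.39 with blank particles (adjusted p = 5.3e-09). In CITED against MDSC, S100a8 and S100a9 stood at −0.005 and 0.007 (adjusted p = 0.96 and 0.93). These 2 genes made up most of the marker sums. With blank particles they rose against MDSC by 0.33 and 0.45 (adjusted p = 5e-07 and 4.3e-10). Between CITED and MDSC-NP-Blk they stood at −0.33 and −0.44 (adjusted p = 1e-06 and 1.8e-09). Sums of 5 B cell markers ran from 270 to 368 in MDSC, from 175 to 251 with blank particles and from 71.3 to 100 in CITED, and 5 of 5 were called lower in CITED than in MDSC. Sums of 5 macrophage markers were 6319 to 6817, 4436 to 5606 and 5035 to 5303, and those of 4 mast cell and basophil markers were 4942 to 5346, 5407 to 6207 and 3598 to 3740. Plasmacytoid dendritic cells are known as strong interferon producers, and sums of 6 of their markers were 499 to 601, 423 to 453 and 383 to 407, with Siglech, the most specific of them, at means of 6.34, 1.07 and 0. A single gene, Tcf4, made up most of these sums, with means of 522, 416 and 371. Of these last lists, 3, 1 and 1 genes were called lower in CITED than in MDSC and 0 higher. Adgre1 was the largest part of the macrophage sums, with means of 3766, 3806 and 4445. It rose by 0.24 in CITED against MDSC (adjusted p = 0.0023), whereas the other 4 fell at an adjusted p under 0.05. Among these, C1qa and C1qb fell by 4.05 and 3.01 on the log2 scale. Sums of 5 conventional dendritic cell markers were 792 to 958, 995 to 1177 and 1048 to 1143 in the same order, and 1 of them, Clec9a, was called higher in CITED than in MDSC (log2 fold change 1.29, adjusted p = 5.9e-06). Erythroid (5 genes) and T and NK cell (8) markers summed to 45.5 to 90.3 and 46.8 to 83.8 over all libraries, with 0 called between CITED and MDSC, and Ncr1 had 0 counts in every library. In these bulk libraries, fewer cells of a type and less RNA per cell cannot be told apart. The part of these shifts in the OAS values was not tested.

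Both loci of the family lie on mouse chromosome 5 (GRCm39). Oas1a, Oas1g, Oas2 and Oas3 stand in a 191-kb locus of 10 genes, and Oasl2 and Oasl1 follow each other on the plus strand of a 41.0-kb locus that lies 5.79 megabases away. Oas2 (chr5:120868398-120887933) and Oas3 (chr5:120891163-120915729) are separated by 3.23 kb on the minus strand, on which Oas1g (chr5:121014205-121025676) and Oas1a (chr5:121031070-121046449) also lie. Oasl2 (chr5:115034997-115050295) and Oasl1 (chr5:115061294-115075974) are 11 kb apart. The other 6 genes of the locus belong to the Oas1 cluster, a set of duplicated genes.

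**Figure D1:**
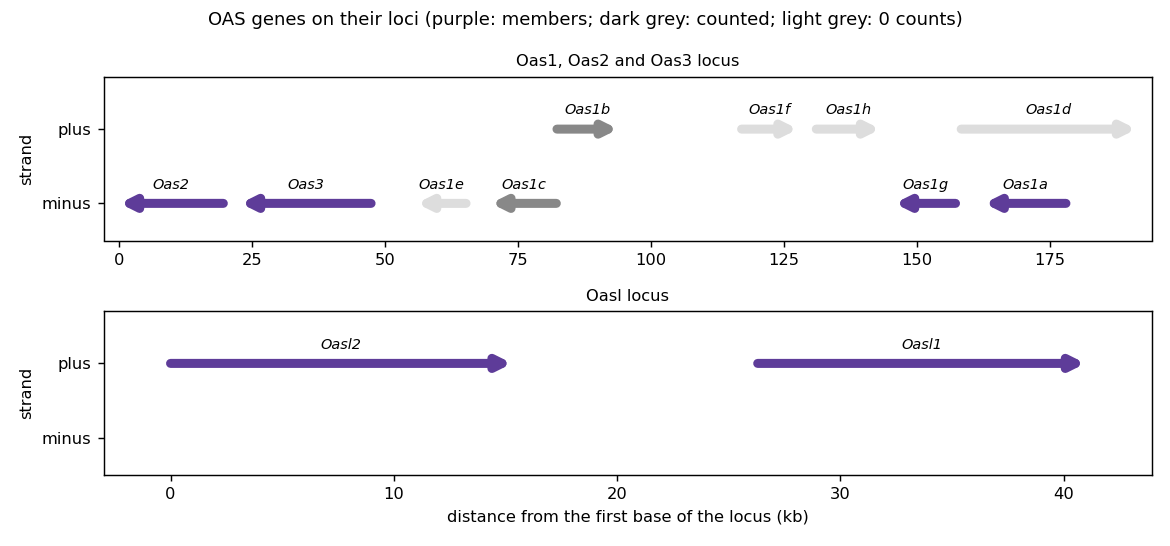
Positions of the OAS genes on their loci, with distance from the first base of each locus in kb on the horizontal axis and the strand on the vertical axis. Arrows point in the direction of transcription. The 6 members are purple, Oas1b and Oas1c, which had counts, are dark grey, and Oas1d, Oas1e, Oas1f and Oas1h, which had 0 counts in all 12 libraries, are light grey.

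The interferon-stimulated response element (ISRE) is the DNA sequence bound by IRF proteins, among them IRF9 in the complex that interferon activates. A simple form of it, GAAA, any 2 bases and GAAA again, on either strand, was looked for in 300 bases around the start of the canonical transcript (250 before it and 50 from it) of each gene in GRCm39 with the GENCODE annotation. It was present in 4 of the 6 members, of which Oas1a and Oas1g are close copies, against 834 of 21738 promoters (3.84%). The stretches that hold it are shown because the same letters recur within the Oas1 cluster, with capitals for the matched letters:

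Oas1a (chr5:121045591-121045623, minus strand): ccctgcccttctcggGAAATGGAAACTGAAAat
Oas1g (chr5:121025664-121025709, minus strand): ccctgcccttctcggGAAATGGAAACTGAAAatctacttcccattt
Oas2 (chr5:120887965-120888004, minus strand): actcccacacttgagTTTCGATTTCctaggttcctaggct
Oas3 (chr5:120915775-120915814, minus strand): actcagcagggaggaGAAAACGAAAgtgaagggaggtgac
Oas1b (chr5:120950663-120950708, plus strand): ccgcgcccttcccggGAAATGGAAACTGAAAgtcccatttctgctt

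In Oas1a and Oas1g the capitals hold 2 overlapping matches, and the 16 capital letters are the same in both genes. They also occur in the promoter of Oas1b. Oas1c starts close by in the opposite direction, and its window holds the same genomic copy, read from the other strand. In Oas1a they cover bases 3 to 18 of the transcript, counted from 1 at its start, whereas in Oas1g they lie 49 to 34 bases before the start. The match in Oas2 is on the other strand, 56 to 47 bases before the start, and that in Oas3 lies 70 to 61 bases before it. Neither Oasl1 nor Oasl2 held these letters in this window. A second pattern, TTCNNNGAA, the core of the gamma-activated site, was found in Oas1a alone among the members, 76 to 68 bases before the start, and in 8.81% of all promoters. These matches describe letters only, and binding was not measured.

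OAS transcripts were higher in CITED than in either other group for every member. Values are normalized counts, and fold changes come from 1 edgeR fit of all tested genes. A gene is said to have passed the thresholds when its adjusted p was under 0.05 and its absolute log2 fold change at least 1. Between CITED and MDSC, 6 of 6 members were higher, passed the thresholds and had no overlap between libraries, and 3.28% of all tested genes passed the thresholds upward and 6.7% downward, while 21.2% were higher with no overlap. The median log2 fold change of the members was 1.87 (1.27 to 2.47), and that of all tested genes was −0.05. Between CITED and MDSC-NP-Blk, again 6 of 6 members were higher, passed the thresholds and had no overlap, where the shares of all genes were 0.651% past the thresholds upward, 2.0% past them downward, and 10.4% higher with no overlap. The median was 1.78 (1.27 to 2.34), and that of all genes 0.00. Any pair of comparisons shares the libraries of 1 group. The members were selected on these differences, so their values are a description and carry no p-value.

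Blank particles went with a mixed pattern. Between MDSC-NP-Blk and MDSC, 3 members were higher and 3 lower, and the median log2 fold change was −0.10, against −0.03 for all genes. Oasl2 was the 1 member that passed the thresholds, where 1.88% of all genes passed upward and 2.86% downward. Oasl2 and Oas3 were higher with no overlap and Oas1a was lower with no overlap, where 18.1% and 17.4% of all genes were higher or lower in this way. For Oas1g, Oas2 and Oasl1 the libraries of the groups overlapped.

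**Figure D2:**
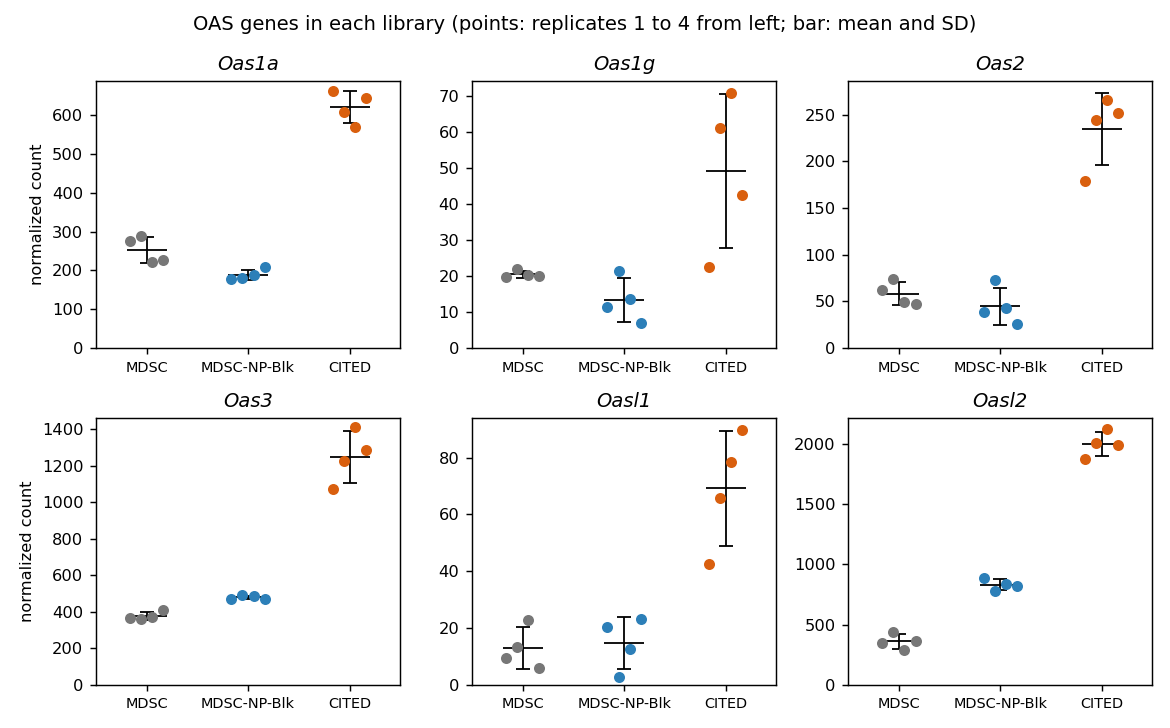
Normalized counts of the 6 OAS genes in each library, 1 panel per gene, with a linear vertical axis that starts at 0. Points are replicates 1 to 4 from left to right, and bars give the mean and SD of the 4 libraries. The CITED points lie above all MDSC and MDSC-NP-Blk points in every panel, closest for Oas1g, where CITED replicate 1 stands at 22.5 and the highest MDSC library at 21.8.

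Oas1a encodes a small synthetase with a single OAS unit. It had 276, 288, 222 and 228 normalized counts in MDSC, 177, 180, 187 and 208 with blank particles, and 663, 607, 568 and 645 in CITED. The blank-particle libraries were the lowest and the CITED libraries the highest, with no overlap among the 3 groups. The level in CITED was 2.44-fold that in MDSC (log2 fold change 1.29, SE 0.101) and 3.31-fold that in MDSC-NP-Blk (1.73, SE 0.105). In MDSC-NP-Blk it was 1.35-fold lower than in MDSC (−0.44, SE 0.108).

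Oas1g encodes another synthetase of the Oas1 cluster, a close copy of Oas1a. Its counts were low, at 19.6, 21.8, 20.2 and 20.1 in MDSC, 11.5, 21.3, 13.5 and 7.0 with blank particles and 22.5, 61.0, 70.9 and 42.5 in CITED. The MDSC libraries were close to each other, whereas CITED ranged widely, and its replicate 1, with 18 reads, stood just above them. The level in CITED was 2.40-fold that in MDSC (log2 fold change 1.27, SE 0.391) and 3.56-fold that in MDSC-NP-Blk (1.83, SE 0.407). Without CITED replicate 3 the log2 fold change against MDSC was 1.04 and Oas1g did not pass the thresholds. Against MDSC, MDSC-NP-Blk stood at −0.57 (SE 0.417).

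The assignment of reads between these copies is uncertain. Of the 31-base words in the canonical Oas1a transcript, 67.8% also occur in Oas1g, which leaves 604 of 1881 words that no other gene holds. For Oas1g, 66.3% occur in Oas1a, and 645 of its 1947 words are its own. The other members shared little, 3.75% for Oas3, 0.517% for Oasl2, 0.138% for Oasl1 and 0.00% for Oas2. With the 8 Oas1 genes summed and fitted as 1 gene, the log2 fold change was 1.10 (SE 0.0962) in CITED and −0.42 (SE 0.101) with blank particles, both relative to MDSC, and 1.52 (SE 0.0993) between the particle groups. The summed cluster had the signs of Oas1a in all 3 comparisons. Oas1a held most of the summed counts, for example 352 of 476 in MDSC replicate 1 and 530 of 612 in CITED replicate 1. The shared signs therefore follow from Oas1a itself and do not show how reads were split between the copies.

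The other 6 genes of the Oas1 cluster are not members, and 2 of them, Oas1b and Oas1c, could be tested. Oas1b, which is truncated in common laboratory strains, had 22.3 ± 7.44 normalized counts in MDSC, 16.6 ± 12.5 with blank particles and 34.7 ± 11.2 in CITED (SD, n = 4). None of its comparisons passed the test (edgeR adjusted p = 0.27 between CITED and MDSC, 0.5 between MDSC-NP-Blk and MDSC, and 0.1 between the particle groups). Oas1c, which is thought to lack synthetase activity, had 61.5 ± 15.2, 48.4 ± 20.6 and 62.7 ± 8.31, with adjusted p-values of 0.96, 0.38 and 0.42 in the same order. Oas1d, Oas1e, Oas1f and Oas1h had 0 counts in every library. Of these, Oas1d spans Oas1a on the opposite strand.

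Oas2 encodes a larger synthetase made of tandem OAS units. It had 62.0, 74.0, 49.6 and 47.2 normalized counts in MDSC, 38.2, 72.9, 42.6 and 25.7 with blank particles, and 179, 244, 266 and 252 in CITED. The lowest CITED library held more than any other library, and the groups without rapamycin overlapped. The level in CITED was 4.03-fold that in MDSC (log2 fold change 2.01, SE 0.215) and 5.05-fold that in MDSC-NP-Blk (2.34, SE 0.222). MDSC-NP-Blk stood at −0.32 (SE 0.236) against MDSC, and at −0.71 without its replicate 2, which was the highest of that group.

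Oas3 encodes the largest synthetase, also built of tandem units, and is a main source of oligoadenylates in several cell types. It had 364, 359, 372 and 411 normalized counts in MDSC, 471, 490, 485 and 471 with blank particles, and 1071, 1227, 1411 and 1285 in CITED. The groups stood apart in that order with no overlap. The level in CITED was 3.32-fold that in MDSC (log2 fold change 1.73, SE 0.0834) and 2.61-fold that in MDSC-NP-Blk (1.38, SE 0.0823). The level in MDSC-NP-Blk was 1.27-fold that in MDSC (0.35, SE 0.0854), a value that was 0.09 when libraries were scaled by their totals alone.

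The OAS-like genes add ubiquitin-like domains to the OAS fold. Oasl1, which in mice holds back the translation of Irf7 and lacks synthetase activity, had 9.41, 13.3, 23.0 and 6.02 normalized counts in MDSC, 20.4, 2.75, 12.5 and 23.3 with blank particles, and 42.5, 65.9, 78.6 and 89.7 in CITED. It was the scarcest member in MDSC, and its CITED libraries lay above all others. The level in CITED was 5.33-fold that in MDSC (log2 fold change 2.41, SE 0.446) and 4.91-fold that in MDSC-NP-Blk (2.30, SE 0.45). The difference between MDSC-NP-Blk and MDSC was 0.12 (SE 0.486), and its sign changed under 5 alternatives, scaling by library totals alone (−0.15) and the fits without MDSC replicate 1 or 4 or MDSC-NP-Blk replicate 1 or 4.

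Oasl2, which kept synthetase activity, had 349, 442, 289 and 366 normalized counts in MDSC, 884, 780, 840 and 824 with blank particles, and 1874, 2011, 2127 and 1991 in CITED. The groups did not overlap, with MDSC the lowest, blank particles between, and CITED the highest. The level in MDSC-NP-Blk was 2.30-fold that in MDSC (log2 fold change 1.20, SE 0.0886), and that in CITED was 2.41-fold that in MDSC-NP-Blk (1.27, SE 0.0832). In all, CITED stood 5.54-fold above MDSC (2.47, SE 0.0884).

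**Figure D3:**
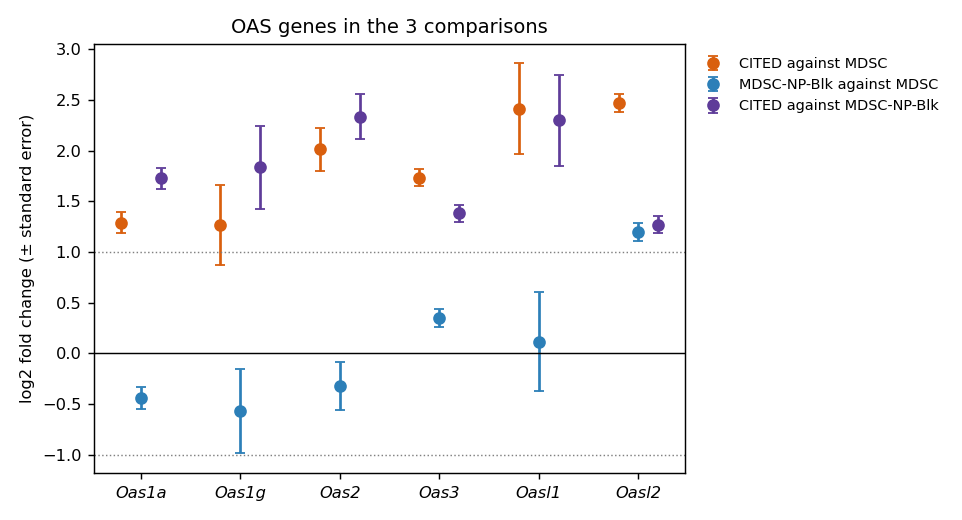
Log2 fold changes of the 6 OAS genes with their standard errors in the 3 comparisons, from the fit over all genes, with dotted lines at 1 and −1. The values for CITED lie between 1.27 and 2.47 in both comparisons, whereas those for MDSC-NP-Blk against MDSC run from −0.57 for Oas1g to 1.20 for Oasl2.

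Levels were compared between genes per kb of canonical transcript, as normalized counts per kb. In MDSC the order was Oas1a (133 ± 17.4), Oasl2 (116 ± 20.3), Oas3 (79.7 ± 4.97), Oas2 (15 ± 3.19), Oas1g (10.3 ± 0.489) and Oasl1 (5.85 ± 3.31; SD, n = 4). The ranges of Oas1a and Oasl2 overlapped, but within each MDSC library Oasl2 was the lower, at 0.774 to 0.984 times Oas1a. In MDSC-NP-Blk, Oasl2 led with 266 ± 13.8, Oas3 (101 ± 2.02) and Oas1a (98.4 ± 7.22) overlapped, and Oas2, Oas1g and Oasl1 lay between 6.66 and 11.5. In CITED the order was Oasl2 (641 ± 33.2), Oas1a (325 ± 22), Oas3 (264 ± 29.9), Oas2 (60.5 ± 9.93), Oasl1 (31.3 ± 9.17) and Oas1g (24.9 ± 10.8), in which Oas1a and Oas3, and likewise Oasl1 and Oas1g, overlapped.

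The share of each gene in the summed level of the family was not the same in the 3 groups. The 6 members summed to 359 ± 34.8 normalized counts per kb in MDSC, 491 ± 9.06 with blank particles and 1347 ± 70.7 in CITED (SD, n = 4). Oas1a held 36.9% ± 2.30 of that sum in MDSC, 20% ± 1.48 with blank particles and 24.2% ± 2.79 in CITED, where the shares of the particle groups overlapped. Oasl2 held 32.1% ± 2.82, 54.2% ± 1.87 and 47.6% ± 0.788, with no overlap. The mean share of Oas3 per group stayed between 19.6% and 22.4%, and single libraries ran from 18.1% in CITED to 24.9% in MDSC. Per kb, Oasl2 stood at 0.873 times Oas1a in MDSC, 2.72 times in MDSC-NP-Blk and 1.98 times in CITED.

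**Figure D4:**
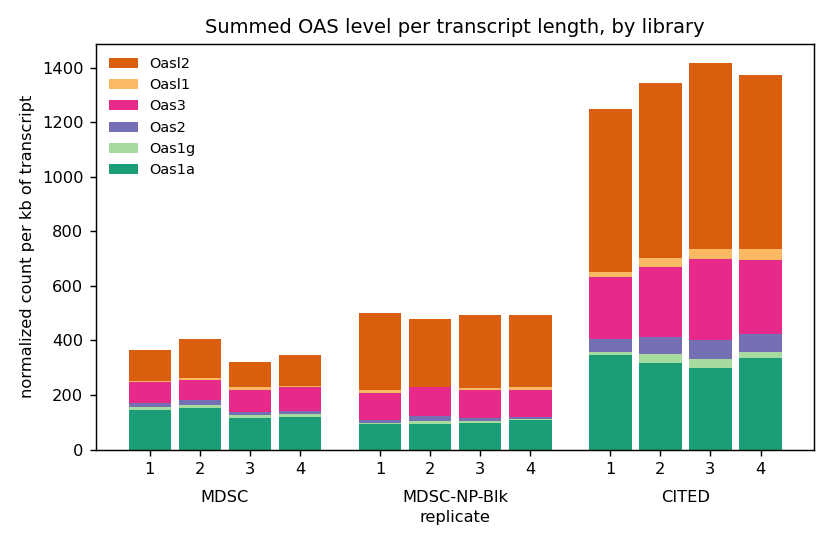
Normalized counts per kb of canonical transcript, stacked over the 6 OAS genes, for each of the 12 libraries, with bars that start at 0. Mean totals were 359 in MDSC, 491 with blank particles and 1347 in CITED, and Oasl2 made up the tallest block in both particle groups.

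The other genes of the pathway were taken as 72 genes in lists, of which 59 could be tested. In CITED against MDSC 10 of them were called higher and 2 lower, in MDSC-NP-Blk against MDSC 2 and 1, and between the particle groups 6 and 1. Over all tested genes, 580 were higher and 1185 lower of 17676 in CITED against MDSC, 333 and 505 in MDSC-NP-Blk against MDSC, and 115 and 354 between the particle groups. Genes that act downstream of the synthetases or break their product down lay within the 2-fold threshold. Abce1, a ribosome recycling factor, had a log2 fold change against MDSC of −0.60 for CITED and −0.81 for MDSC-NP-Blk (edgeR adjusted p = 1.4e-09 and 3.1e-12). Of the enzymes that break oligoadenylates down, Pde12 fell in CITED (−0.54, adjusted p = 1.8e-06) and MDSC-NP-Blk (−0.33, adjusted p = 0.0015), and Akap7 rose in both (0.53 and 0.48, adjusted p = 0.00034 and 0.0013). These shifts were present with blank particles, and for Pde12 and Akap7 no difference between CITED and MDSC-NP-Blk passed the test (adjusted p = 0.085 and 0.83).

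Upstream of the family, transcripts of the interferons themselves were scarce. Of 10 interferon genes, among them Ifnb1, Ifng and 4 alpha genes, 9 had 0 counts in all 12 libraries, which allows levels up to the floor of 3 counts, and the other, Ifnk, did not pass the test in any comparison and had at most 7 reads in a library. None of 8 sensors of double-stranded RNA or DNA and none of 6 adaptors and kinases passed the thresholds. The 6 interferon receptor genes were all higher than in MDSC at an adjusted p under 0.05, both in CITED and in MDSC-NP-Blk, and 0 reached the 2-fold threshold. Of the 59 pathway genes tested, 35 in CITED and 28 in MDSC-NP-Blk were higher at this looser cut. The share of all tested genes at this cut was not counted, so the receptor count is a description. Among the receptors, Ifnar2, a subunit of the type I receptor, had log2 fold changes of 0.88 (adjusted p = 4.4e-15) and 0.81 (adjusted p = 7.8e-14). It was named after its values were seen.

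Among 12 genes of interferon signalling and IRF factors, 2 passed the thresholds in CITED against MDSC, both upward. Irf7, the factor that amplifies type I interferon production, had 288 ± 11.6 normalized counts in MDSC, 484 ± 30.5 with blank particles and 748 ± 54.9 in CITED. Its log2 fold changes were 1.38 (CITED against MDSC, adjusted p = 1.5e-15), 0.74 (MDSC-NP-Blk against MDSC, adjusted p = 9.4e-09) and 0.63 (CITED against MDSC-NP-Blk, adjusted p = 2.9e-07). Irf9, the DNA-binding part of the complex that recognizes the ISRE, had 673 ± 31.6, 888 ± 46.1 and 1368 ± 103, with log2 fold changes of 1.02, 0.40 and 0.62 (adjusted p = 4.3e-14, 2.9e-05 and 2.1e-08). Stat2, which joins Irf9 in that complex and was named after its values were seen, fell by 0.31 on the log2 scale in CITED against MDSC (adjusted p = 0.00012). It also fell in MDSC-NP-Blk against MDSC (−0.48, adjusted p = 2e-07), and the difference between CITED and MDSC-NP-Blk was 0.17 (adjusted p = 0.071).

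Of 6 negative regulators, Usp18 and Socs1 passed the thresholds in CITED against MDSC. Usp18, a protease that removes ISG15 and damps receptor signalling, had 41.7 ± 2.29 normalized counts in MDSC, 48.6 ± 12.8 with blank particles and 213 ± 38.5 in CITED. Its log2 fold changes were 2.34 (adjusted p = 5.5e-12) between CITED and MDSC, 2.12 (adjusted p = 3.1e-10) between the particle groups, and 0.22 (adjusted p = 0.45) between MDSC-NP-Blk and MDSC. Socs1, an inhibitor of JAK kinases, rose against MDSC by 1.10 with blank particles (adjusted p = 3.9e-15) and by 1.38 in CITED (adjusted p = 2.9e-18), and the particle groups differed by 0.29 (adjusted p = 0.0011).

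Other interferon-stimulated genes did not move as one. Of 14, 6 were called higher and 2 lower in CITED against MDSC, 1 higher and 1 lower in MDSC-NP-Blk against MDSC, and 5 higher and 1 lower in CITED against MDSC-NP-Blk. Their median log2 fold changes were 1.32, 0.32 and 1.07, beside −0.05, −0.03 and 0.00 for all genes. Rtp4, an interferon-induced chaperone of receptors, had 23.6 ± 4.59 in MDSC, 66.6 ± 7.33 with blank particles and 362 ± 75.0 in CITED, with log2 fold changes against MDSC of 1.5 (adjusted p = 2.3e-07) and 3.95 (adjusted p = 1e-18). Bst2, which tethers budding virions, and Rsad2, an antiviral radical SAM enzyme, were higher in CITED than in MDSC by 1.11 (adjusted p = 6.4e-14) and 1.64 (adjusted p = 4.1e-10). For MDSC-NP-Blk against MDSC they gave 0.16 (adjusted p = 0.14) and 0.31 (adjusted p = 0.18).

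Other genes of this list fell. Ifit2, an antiviral protein that binds RNA, had 236 ± 21.9 normalized counts in MDSC, 133 ± 24.2 with blank particles and 67.2 ± 18.7 in CITED. Its log2 fold changes were −1.82 (adjusted p = 5.1e-11) between CITED and MDSC, −0.82 (adjusted p = 6.5e-05) between MDSC-NP-Blk and MDSC, and −1.0 (adjusted p = 4.3e-05) between the particle groups. The other genes called lower, named after their values were seen, had few counts. Mx1 had 33.1 ± 23.2, 14.1 ± 5.48 and 7.98 ± 13.5 and was called lower in CITED against MDSC (adjusted p = 0.021). Mx2, with at most 10 reads in a library, was called lower in MDSC-NP-Blk, where all 4 libraries had 0 counts (adjusted p = 0.019).

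**Figure D5:**
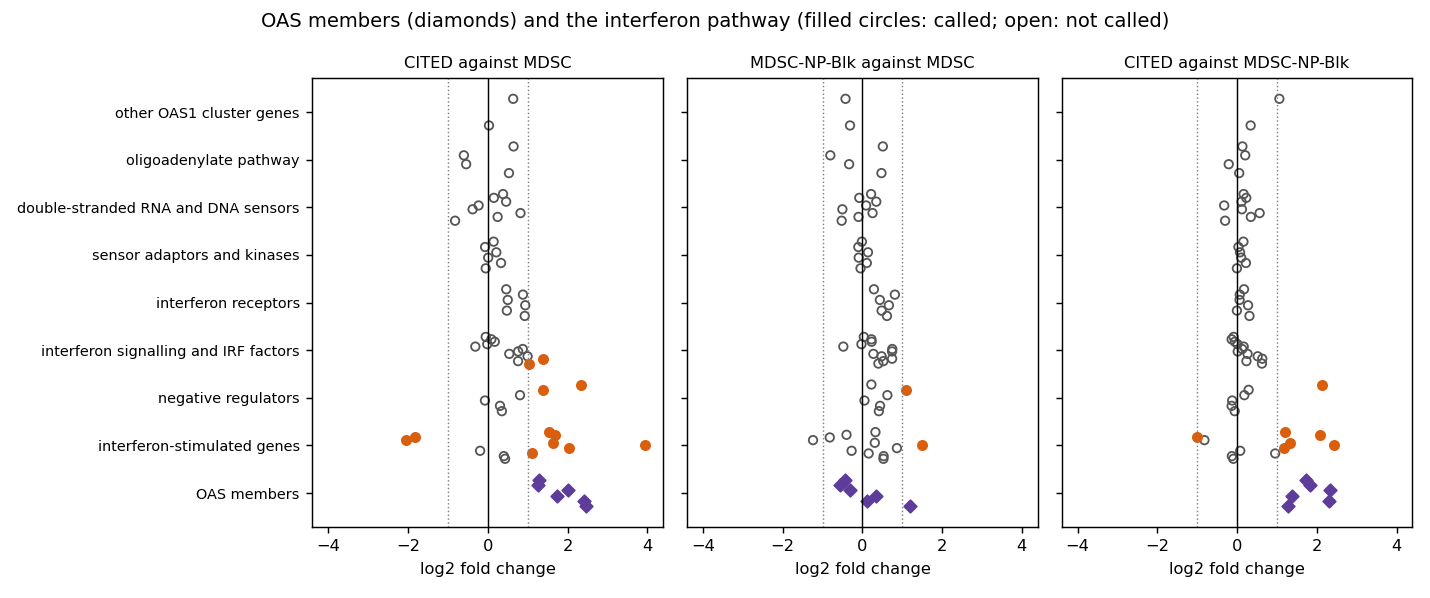
Log2 fold changes of the 6 OAS genes (diamonds) and of 55 genes of the interferon pathway (circles) in the 3 comparisons, 1 row per list, with dotted lines at 1 and −1. Filled circles passed the thresholds. Interferon genes and 3 tested genes with fewer than 20 reads in every library (Ifit3, Mx2 and Ifi44) are not drawn. The sensors, adaptors and receptors lie within the dotted lines, whereas interferon-stimulated genes lie on both sides of 0 in CITED against MDSC.

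The genes whose levels ran most like the family were found from Pearson's r over the 12 libraries between log2 CPM and the mean of the 6 centred and scaled members, among 10551 genes with a mean normalized count above 50. These points share libraries and groups, so r is a description. Among the 10 highest were Slc11a1 (0.99), Scpep1 (0.989), Colgalt1 (0.986), Lgals3bp (0.984), Arsg (0.981), Slfn5 (0.98), Flcn (0.978), Kif1c (0.976) and Adam8 (0.975). Of these, Slfn5, a Schlafen gene known to respond to interferon, was past the thresholds in CITED against MDSC, at 157 ± 18.2, 138 ± 7.15 and 674 ± 19.0 normalized counts in MDSC, MDSC-NP-Blk and CITED. Slc11a1, a metal transporter of phagosomes, had 2176 ± 24.5, 2082 ± 89.0 and 3783 ± 196. Between pairs of members, r ran from 0.54 (Oas1g and Oasl2) to 0.936 (Oas3 and Oasl2).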

How the data were processed

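Poly(A)-enriched RNA of 12 libraries was sequenced as paired reads of 150 bases. The authors quantified transcripts with Salmon 1.4.0 against GENCODE transcripts and GRCm39, summed them to genes with tximport in R 4.3.2, and deposited raw counts per gene symbol. Salmon splits reads shared by similar transcripts by estimation, which bears on Oas1a and Oas1g. Their GENCODE release is not given in the sources used here.

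Groups and replicate numbers came from sample titles. In R 4.3.3, the 17676 symbols with at least 2 counts were fitted with edgeR 4.0.16 (TMM factors, group only, glmQLFit and glmQLFTest, all 12 libraries), with Benjamini-Hochberg adjustment over all of them. P-values weigh the difference between groups against the spread between these libraries within groups, as estimated in that fit. The members and gene lists were chosen with earlier results of these data known. The text names the members, the other Oas1 genes, the oligoadenylate genes, up to 4 called genes per list, the 10 genes most like the members, and the 3 tested neighbours on each side of each locus. Some genes that meet this rule are not reported here. Positions, transcript lengths, shared 31-base words and promoters came from GENCODE release 39 on GRCm39, which held 17648 of the tested symbols. Log2 CPM values used a prior count of 2. Figures were drawn with matplotlib 3.10.9.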

Additional observations from a re-analysis of the deposited data

Results flagged for a closer look

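In 42 genes, each group of 4 libraries was examined for 1 library far from the rest, by the gap to its nearest neighbour over the range of the group (Dixon's test). Chance picks out about 1 group in 20, and 6 of 126 groups were picked out. Oas1c stood at 79.1 normalized counts in MDSC-NP-Blk replicate 2, where the others lay between 36.4 and 40.7. Pde12 stood at 634 in MDSC replicate 3, below 687 to 696 in the others. Irf7 stood at 529 in MDSC-NP-Blk replicate 1, above 467 to 471. Among neighbours of the loci, Dtx1 stood at 18 in MDSC replicate 2, above 3.14 to 5.51. The pseudogene Gm13827 stood at 3.12 in MDSC-NP-Blk replicate 3 and 4930519G04Rik at 1.90 in MDSC replicate 2, with 0 in the others of each group. No group of a member was picked out.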

How the results depend on the processing

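The alternatives were other normalizations and filters, DESeq2 1.42.0, a length correction, fits of only the 8 libraries compared, the replicate number as a block, and fits without 1 library each. Of 315 alternative values for counts of calls and for the summed Oas1 cluster, 306 stayed within 1.5 times the count or, for the cluster, within 1 SD between libraries (0.145 on the log2 scale). That range includes counts of called genes that went from 1765 to 2163 and from 838 to 1206 with library totals alone. With library totals alone, the median of all genes moved to −0.32 in CITED against MDSC and −0.29 in MDSC-NP-Blk against MDSC, and the share of called genes that were higher fell from 32.9% to 12.6% and from 39.7% to 12.1%. On that scale 5 of 6 members passed in CITED against MDSC, without Oas1g, and 0 in MDSC-NP-Blk against MDSC, where Oasl2 stood at 0.94 and Oas3 at 0.09. The summed Oas1 cluster then stood at 0.83 and −0.68. Relative to all genes, the members' median in CITED against MDSC was 1.92 with TMM and with library totals. This had to be so, because a change of scaling moves all genes nearly alike. The call of Rph3a was lost with the length correction (0 calls), and without 1 library each the count of called neighbours ran from 0 to 1 (lost without MDSC replicate 3 or 4 or CITED replicate 2, 3 or 4). The members past the thresholds in CITED against MDSC ran from 5 to 6 without 1 library each, with Oas1g lost without CITED replicate 3. In MDSC-NP-Blk against MDSC the count stayed at 1, Oasl2, in every fit without 1 library. Replicate numbers did not pair the libraries (same-number correlations from −0.06 to 0.14 over 10555 genes), and with the number as a block 6, 1 and 6 members passed in the 3 comparisons, as without it. Of 384 alternative log2 fold changes of members, 5 changed sign, all of Oasl1 in MDSC-NP-Blk against MDSC. Oas1g and Oasl1, the members with the fewest counts, had the largest standard errors, 0.391 to 0.486.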

Other observations

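The nearest tested genes around the loci, 3 on each side, were mostly outside the thresholds: 0 of 12 were called higher in any comparison and 1 was called lower, in CITED against MDSC. This was Rph3a, a vesicle protein gene 18.8 kb beyond the Oas1 side, with 23.1 ± 7.44 normalized counts in MDSC, 14.5 ± 5.41 with blank particles and 8.60 ± 8.60 in CITED (log2 fold change −1.44, edgeR adjusted p = 0.037). Dtx1, 17.5 kb beyond Oas2, had 7.68 ± 6.98, 2.72 ± 1.79 and 3.06 ± 1.36 (adjusted p = 0.28 for CITED against MDSC). 2210016L21Rik, 4.24 kb beyond Oasl1, had 236 ± 18.9, 333 ± 16.0 and 370 ± 36.0, with log2 fold changes against MDSC of 0.65 in CITED (adjusted p = 2.1e-06) and 0.49 in MDSC-NP-Blk (adjusted p = 0.00017). Sppl3, a membrane protease gene, rose by 0.52 and 0.44 (adjusted p = 1.4e-08 and 4.5e-07). Rpl6, a ribosomal protein gene, rose by 0.56 and 0.67 (adjusted p = 1.3e-12 and 2.9e-14), and Ddx54, an RNA helicase gene, by 0.25 in CITED (adjusted p = 0.00072) and 0.14 with blank particles (adjusted p = 0.056). Lower than in MDSC were Ptpn11, a phosphatase gene (−0.27, adjusted p = 0.00036 in CITED, and −0.20, adjusted p = 0.011 with blank particles), and Ankrd13a (−0.33 in CITED, adjusted p = 3.8e-06, and −0.08 with blank particles, adjusted p = 0.29).

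Libraries of 1 group did not order the members alike. CITED replicate 1 was the lowest of its group for 5 of the 6 members and the highest for Oas1a, and CITED replicate 3 was the highest for 4 members and the lowest for Oas1a. In MDSC-NP-Blk, replicate 2 was the highest for Oas1g, Oas2 and Oas3 and the lowest for Oasl1 and Oasl2.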
